A study of Mus musculus with 4 samples.

Results

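The genes described here answer to glucocorticoid hormone. They are 7 responsive genes (Fkbp5, Tsc22d3, Zbtb16, Klf9, Sgk1, Ddit4 and Errfi1), the receptor gene Nr3c1 and the activating enzyme gene Hsd11b1, which makes 9 of the 30406 genes listed for all 4 libraries. They were taken by symbol, and each symbol matched 1 gene. Single-cell RNA sequencing was performed on popliteal lymphatic vessels and the superficial saphenous vein, dissected together from mouse hindlimbs. The WT library and the TNF-Tg library (a human TNF transgene that gives chronic arthritis) came from male mice, aged 9 months by the labels, and were sorted by scatter and viability only. The remaining libraries, tdT1 and tdT2, replicate one group: tdTomato+ sorted cells from Cspg4-Cre;Ai9-tdTomato mice older than 8 months, in which Cspg4-Cre marks mural cells, and these mice carried no TNF transgene. The study names male and female Cspg4-Cre mice for the cross, and the sex of the offspring used is not stated. All mice were on a C57BL/6J background, every library pooled 3 mice, and the libraries were prepared on separate days. The protocol changed after tdT1: the other 3 libraries were sorted through a wider nozzle into serum-coated tubes and sequenced on another instrument.

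Glucocorticoid hormone enters the cell and binds the receptor encoded by Nr3c1, which is held by chaperones until it is bound and then moves to the nucleus. There it binds DNA as a pair of molecules at a palindromic element and raises or lowers the transcription of nearby genes. Hsd11b1 encodes the enzyme that turns inactive 11-keto steroid into active hormone inside the cell, and is known from stromal cells and adipose tissue. Fkbp5, Tsc22d3 and Zbtb16 are widely used readouts of an active receptor.

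The element that the receptor pair binds can be shown in a promoter of Sgk1, whose kinase is named for its induction by serum and glucocorticoid. The letters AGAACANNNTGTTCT were searched, a palindrome that reads alike on both strands, together with either of its 6-letter arms, AGAACA or TGTTCT. In RefSeq promoters (GRCm38.p6, 250 bases before to 50 after each start), the full palindrome was present in 3 of 32851 promoters and an arm in 19.0% of them. One of the 6 annotated Sgk1 starts held the full palindrome, 189 bases before the start. Among 3 Tsc22d3 starts, 1 held an arm and none the palindrome. The 250 bases before these starts are printed, Sgk1 from chr10:21993640-21993889 on the plus strand and Tsc22d3 from chrX:140600523-140600772 on the minus strand, with the palindrome and the arms in capitals.
Sgk1: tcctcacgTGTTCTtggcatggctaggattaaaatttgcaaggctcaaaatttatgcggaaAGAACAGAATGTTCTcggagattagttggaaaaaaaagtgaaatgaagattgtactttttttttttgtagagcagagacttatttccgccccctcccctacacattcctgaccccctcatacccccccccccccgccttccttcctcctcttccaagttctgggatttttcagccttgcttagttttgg
Tsc22d3: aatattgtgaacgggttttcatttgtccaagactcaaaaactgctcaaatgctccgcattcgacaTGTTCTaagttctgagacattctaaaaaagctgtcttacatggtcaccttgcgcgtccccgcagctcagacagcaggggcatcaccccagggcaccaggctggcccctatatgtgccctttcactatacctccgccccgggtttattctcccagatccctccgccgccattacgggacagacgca
No match was found in these windows for Fkbp5, Klf9, Ddit4, Errfi1 or Hsd11b1, and promoters of Zbtb16 and Nr3c1 were not used here. A match is a run of letters, and the libraries give no reading of the start a transcript used.

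The libraries held 454 to 5488 cells and 2357031 to 68773605 unique molecular identifiers (UMIs, each a counted RNA molecule). The tdT1 library was counted with another software release and gene list than the other 3, and 516 of its 1504 cells had over 10% mitochondrial UMIs. Each pair of libraries shared 0 to 5 cell barcodes. Cells were sorted into classes by fixed marker genes, with limits set after the marker values were seen, and the 9 genes played no part in it. The large stromal class marked by Pi16 and Myoc (796 tdT1, 113 tdT2, 1474 WT and 557 TNF-Tg cells) is what the study calls lymphatic muscle cells, and the one marked by Cxcl14 and Mgp (202, 102, 638 and 473 cells) is what it calls vascular smooth muscle cells. Contractile genes did not bear out either name: Acta2 lay at 0 to 0.921 CPM in the first class and 0.321 to 4.11 CPM in the second, and Acta2, Myh11, Tagln, Cnn1, Des and Rgs5 summed to 12.9 to 38.4 and 3.53 to 20.2 CPM, with Myh11 at 0 in tdT2 and TNF-Tg of both. They are therefore called Pi16 stromal and Cxcl14 stromal cells here. CPM are the UMIs of a gene per 1000000 UMIs of all cells of that class in that library. Of all stromal cells, 12.98% to 21.63% per library lay near the limit between these classes. Resident macrophages (Lyve1, Folr2) numbered 13, 48, 1387 and 285 cells in tdT1, tdT2, WT and TNF-Tg, and inflammatory monocytes (Ly6c2, Chil3) 11, 24, 86 and 615.

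With 1 library each for WT and TNF-Tg that contrast was not tested. Levels are given with exact 95% Poisson intervals and ratios with exact 95% binomial intervals, which cover counting error only and not the spread between mice. The 2 tdT libraries are the only replicates of one group, and were not made alike. A lower level in a class cannot be told apart from fewer cells of a high state within it, except where the values per cell are given.

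The responsive genes were lower in TNF-Tg than in WT in most cell classes. They were chosen with earlier results of these data known. The study itself lists Zbtb16 and Klf9 among the genes most lowered in its TNF-Tg lymphatic muscle cells. The counts beside all genes are therefore a description and not a test. In Pi16 stromal cells 6 of 7 were at least 2-fold lower in TNF-Tg, where 6.38% of the 12121 genes tested (20 or more UMIs in both libraries together) were. The median log2 ratio was -1.51 for the 7 genes and -0.03 for all genes tested. In Cxcl14 stromal cells all 7 were at least 2-fold lower, where 12.4% of genes were, with a median log2 ratio of -2.39 against -0.21 for all genes. Resident macrophages had 5 of 7 at least 2-fold lower, beside 6.82% of genes, with medians of -3.43 and 0.03.

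Tsc22d3 encodes GILZ, a leucine zipper protein that damps inflammatory signalling. In Pi16 stromal cells it stood at 176 CPM in WT, 39.3 in TNF-Tg, 141 in tdT1 and 45.1 in tdT2. TNF-Tg and tdT2 were low, with intervals of 34.99 to 44.04 and 29.98 to 65.2 CPM that overlapped, while WT and tdT1 were high. The TNF-Tg over WT log2 ratio was -2.16 (95% interval -2.34 to -1.99), or 4.48-fold lower. The levels in Cxcl14 stromal cells were 291, 29.4, 186 and 49.1 CPM in the same order of libraries, a log2 ratio of -3.31 (-3.56 to -3.06). These intervals of the ratio in the 2 classes did not overlap.

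Zbtb16 encodes PLZF, a zinc finger repressor. Pi16 stromal cells held 173 CPM in WT, 20.4 in TNF-Tg, 95.9 in tdT1 and 25.8 in tdT2, and Cxcl14 stromal cells 117, 8.23, 64.8 and 9.82. TNF-Tg was the lowest library in both classes and was 8.48-fold and 14.3-fold lower than WT, the steepest contrast among the 7 genes in either class. The tdT2 interval (14.7 to 41.9 CPM in Pi16 stromal cells) held the TNF-Tg level, and the tdT1 level lay between.

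Klf9 encodes a Krüppel-like transcription factor. Its levels in Pi16 stromal cells were 517 CPM in WT, 182 in TNF-Tg, 513 in tdT1 and 182 in tdT2. The libraries fell into a high pair and a low pair, and within neither pair did the intervals part. The log2 ratio was -1.51 (-1.59 to -1.43) for TNF-Tg over WT and -1.495 (-1.78 to -1.22) for tdT2 over tdT1. The order differed in Cxcl14 stromal cells, with 355 CPM in WT, 117 in TNF-Tg, 779 in tdT1 and 275 in tdT2.

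Fkbp5 encodes a co-chaperone that lowers the receptor's affinity for hormone and so closes a negative feedback loop. Pi16 stromal cells held 107 CPM in WT, 45.8 in TNF-Tg, 48.3 in tdT1 and 16.1 in tdT2. Here WT stood alone: tdT1 lay at the TNF-Tg level, with a log2 ratio between them of 0.08 (-0.13 to 0.28), and tdT2 lay below both on 10 UMIs. The same order held in Cxcl14 stromal cells, at 136, 40.7, 50.9 and 21.6 CPM. TNF-Tg over WT was -1.22 (-1.39 to -1.06) and -1.74 (-1.97 to -1.52) in the 2 classes.

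Errfi1 encodes MIG6, an inhibitor of the EGF receptor. Its level in Pi16 stromal cells was 779 CPM in WT, 308 in TNF-Tg, 1434 in tdT1 and 346 in tdT2. Cxcl14 stromal cells held 858, 163, 1115 and 412 CPM. The 2 high libraries were again tdT1 and WT, and tdT2 was above TNF-Tg by 2.52-fold in Cxcl14 stromal cells. The TNF-Tg over WT log2 ratio was -1.34 (-1.40 to -1.27) in Pi16 and -2.39 (-2.50 to -2.28) in Cxcl14 stromal cells.

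Sgk1 showed the smallest TNF-Tg over WT contrast of the 7 in both stromal classes. It measured 138 CPM in WT, 86.5 in TNF-Tg, 243 in tdT1 and 72.5 in tdT2 in Pi16 stromal cells, a TNF-Tg over WT log2 ratio of -0.68 (-0.80 to -0.56). Cxcl14 stromal cells gave 135, 56.6, 250.4 and 45.2 CPM, with a log2 ratio of -1.25 (-1.45 to -1.05). In both classes tdT1 was highest and tdT2 lowest, and the tdT2 and TNF-Tg intervals overlapped.

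Ddit4 encodes REDD1, an inhibitor of mTORC1, and was the least abundant of the 7 in these sums. Pi16 stromal cells held 8.53 CPM in tdT1, 16.8 in WT and 5.26 in TNF-Tg. No UMI was seen in tdT2, where 3 UMIs would have been 4.83 CPM, so tdT2 could not be told from TNF-Tg at this depth. The TNF-Tg over WT log2 ratio was -1.68 (-2.19 to -1.21) in Pi16 stromal cells and -2.56 (-3.61 to -1.64), on 11 TNF-Tg UMIs, in Cxcl14 stromal cells.

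**Figure D1:**
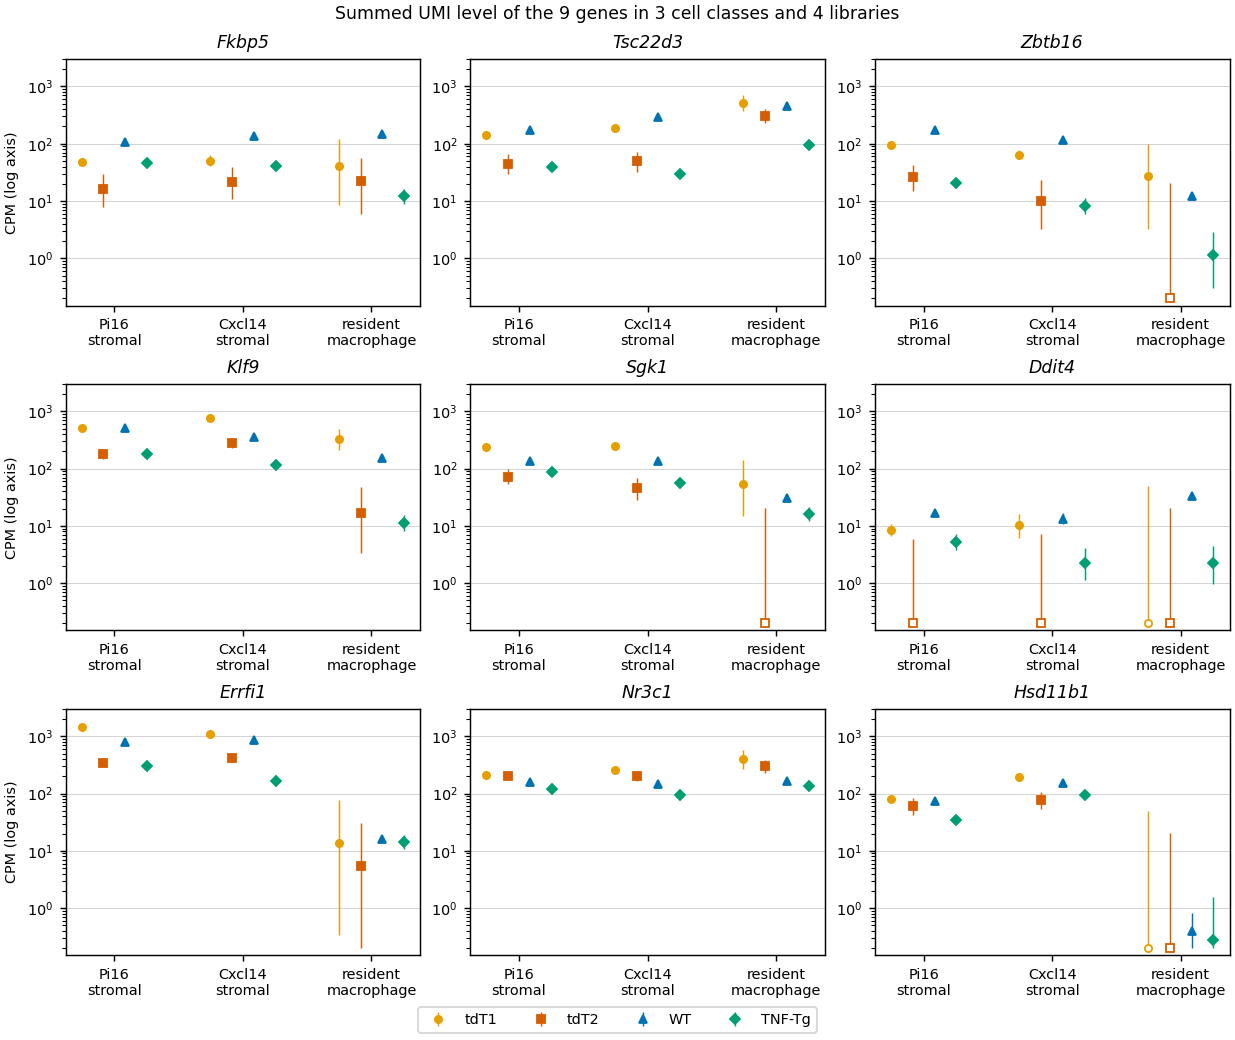
Level of each gene in CPM on a log axis, in 3 cell classes, with 1 point per library and exact 95% Poisson intervals; open symbols at the bottom mark 0 UMIs, drawn at an arbitrary low value. For Klf9 in Pi16 stromal cells, WT (517) and tdT1 (513) sit above TNF-Tg (182) and tdT2 (182), and Nr3c1 shows no such split.

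Where the 2 tdT libraries lay bears on every one of these contrasts, since they are replicates without the transgene. For all 7 genes in Pi16 stromal cells, and for all 7 in Cxcl14 stromal cells, TNF-Tg and tdT2 were both below WT and tdT1. The same arrangement was found for 21.7% of 11666 genes in Pi16 and 23.7% of 10337 genes in Cxcl14 stromal cells (40 or more UMIs over the 4 libraries). TNF-Tg below WT is part of the arrangement, and the 7 genes were chosen with earlier results known. These counts are therefore a description and not a test. For Fkbp5 in Pi16 stromal cells the arrangement rests on 48.3 CPM in tdT1 against 45.8 in TNF-Tg, where the interval of the ratio held 0. In Cxcl14 stromal cells it rests on 50.9 against 40.7 CPM. TNF-Tg itself was the lowest of the 4 for 4 of 7 genes in each class, where 30.3% and 40.1% of all genes had that order, tdT2 was lowest for Fkbp5 and Sgk1, and Ddit4, at 0 UMIs in tdT2, could not be placed. On the log2 scale tdT2 was nearer to TNF-Tg than to WT for 6 of the 6 genes with UMIs in tdT2 in Pi16 and 4 of 6 in Cxcl14 stromal cells, where Klf9 and Errfi1 were the exceptions. The tdT1 library was nearer to WT for 5 and 6 of 7, Fkbp5 being nearer to TNF-Tg in both and Ddit4 in Pi16 stromal cells. The share of all genes with such nearness was not computed, so these counts cannot be called particular to the 7 genes.

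The tdT libraries also differed from each other, by more in median than WT and TNF-Tg did in Pi16 stromal cells and by less in Cxcl14 stromal cells. The 6 genes with UMIs in tdT2 were all at least 2-fold lower in tdT2 than in tdT1 in Pi16 stromal cells, beside 12.3% of the 10814 genes tested, with a median log2 ratio of -1.69. Ddit4, at 0 UMIs in tdT2, was at least 1.77-fold lower against a floor of 3 UMIs, and with it at that floor the median was -1.65. Of the 6 with enough UMIs in Cxcl14 stromal cells, 6 were, beside 10.8% of genes, with a median of -1.71. Ddit4 had too few UMIs there. The median of all genes tested was -0.02 and -0.01. For Zbtb16 and Tsc22d3 the TNF-Tg over WT contrast was the larger in both classes. In Pi16 stromal cells the tdT2 over tdT1 contrast was the larger for Sgk1, Errfi1 and Fkbp5, although the Fkbp5 interval (-2.65 to -0.69) held the TNF-Tg over WT ratio. Errfi1, for example, had a log2 ratio of -2.05 (-2.25 to -1.85) for tdT2 over tdT1.

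**Figure D2:**
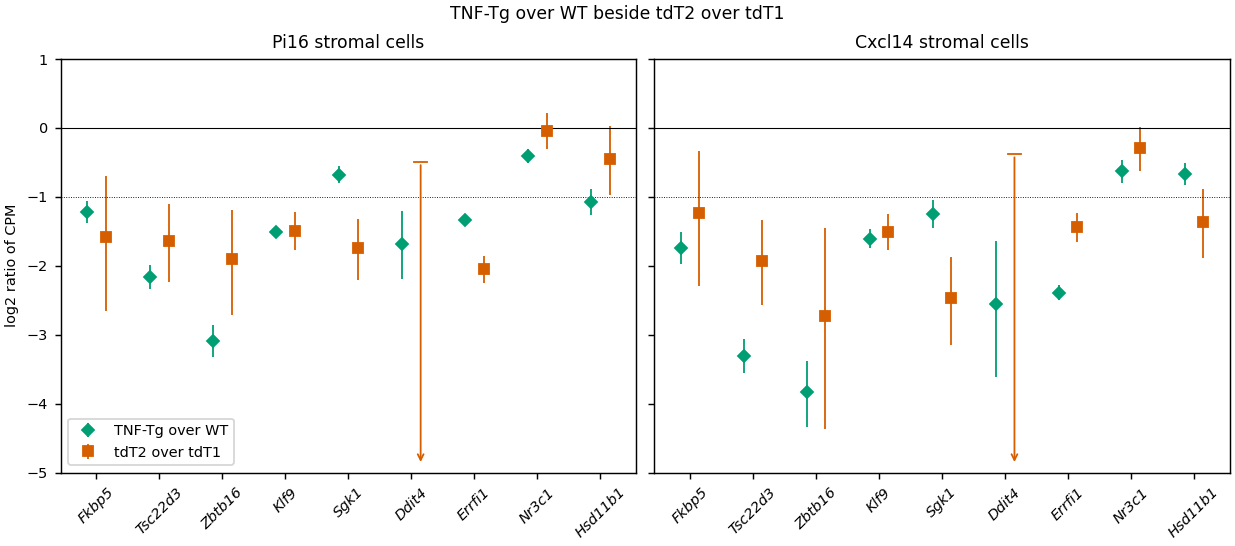
Log2 ratio of CPM for TNF-Tg over WT (diamonds) and for tdT2 over tdT1 (squares) in the 2 stromal classes, with exact 95% intervals; the dotted line marks 2-fold lower, and the arrows give the upper bound for Ddit4, which had 0 UMIs in tdT2. In Pi16 stromal cells the median was -1.51 over 7 responsive genes and -1.69 over the 6 with UMIs in tdT2, while Nr3c1 lay at -0.40 and -0.04.

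Other measures separated the tdT libraries too. A list of 12 genes held heat-shock genes and immediate-early genes, which respond within minutes to stress and to tissue dissociation. In Pi16 stromal cells 8 were at least 2-fold lower in tdT2 than in tdT1, beside 12.3% of all genes. In Cxcl14 stromal cells 10 were, beside 10.8%. The rest in Pi16 stromal cells were Jun and the heat-shock genes Hspa1a (28.6 CPM in tdT1, 30.6 in tdT2), Hspa1b (22.5, 16.1) and Dnajb1 (52.4, 33.8). Fos stood at 1140 CPM in WT, 777 in TNF-Tg, 4421 in tdT1 and 1593 in tdT2 in Pi16 stromal cells, and Atf3 at 58.1, 32.4, 754 and 93.4. Both genes were highest in tdT1. The responsive genes Errfi1 and Sgk1 were also highest in tdT1 in Pi16 stromal cells, at 1434 and 243 CPM, and the other responsive genes had their highest value in WT. For Fos and Atf3 tdT2 was above WT, while every responsive gene was lower in tdT2 than in WT. Hspa1b was lower in tdT2 than in WT too, at 16.1 against 33.6 CPM, and every other gene of the list was higher in tdT2. For TNF-Tg over WT, 0 of these 12 genes were at least 2-fold lower in Pi16 stromal cells, beside 6.38% of all genes. In Cxcl14 stromal cells 2 were (Hspa1a and Fosb), beside 12.4%. Cells of tdT2 were shallower, with a median of 5398 UMIs in Pi16 stromal cells against 11752 in tdT1. The change of nozzle, collection tube and sequencer after tdT1 cannot be told apart from the difference between tdT1 and tdT2, and the part of depth, sex and dissociation in the members' levels was not tested.

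The difference was also read cell by cell. Each cell was thinned to 3000 UMIs and the UMIs of the 7 genes were added. Errfi1 and Klf9 were the most abundant of the 7 in both stromal classes, so they weigh most in this sum. In WT Pi16 stromal cells they stood at 779 and 517 CPM, against 107 for Fkbp5 and 16.8 for Ddit4. Pi16 stromal cells had a median of 5 such UMIs in WT (10th to 90th percentile 2 to 10, 1428 cells) and 2 in TNF-Tg (0 to 5, 547 cells). The tdT1 median was 7 (552 cells) and the tdT2 median 2 (85 cells). At or below the TNF-Tg median lay 65.6% of TNF-Tg, 14.6% of WT, 65.9% of tdT2 and 12.9% of tdT1 cells. None of the 7 genes was detected in 1.68% of WT, 19.0% of TNF-Tg, 1.45% of tdT1 and 15.3% of tdT2 cells. Cxcl14 stromal cells gave shares of 3.37%, 36.9%, 0.855% and 21.3%, and the medians were 5, 1, 8 and 2 UMIs. Left out as too shallow were 46 WT, 10 TNF-Tg, 244 tdT1 and 28 tdT2 Pi16 stromal cells, and 133, 75, 85 and 27 Cxcl14 stromal cells.

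**Figure D3:**
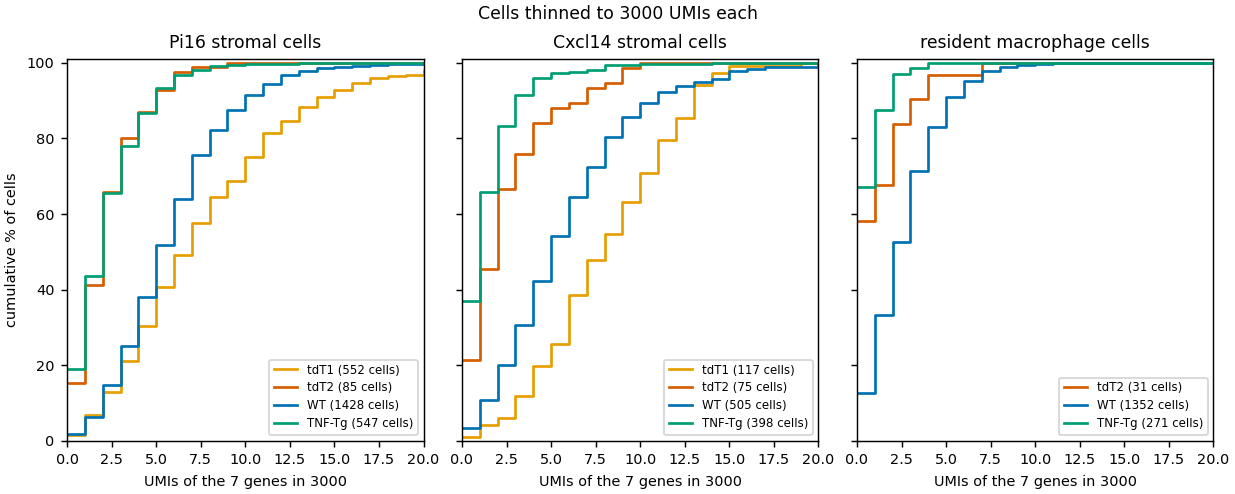
Cumulative percentage of cells (y) by the number of UMIs from the 7 responsive genes among 3000 UMIs (x), by library, in 3 cell classes; tdT1 has too few resident macrophages to draw. In Pi16 stromal cells the TNF-Tg and tdT2 curves run together with medians of 2, to the left of WT (5) and tdT1 (7). Errfi1 and Klf9 weigh most in the stromal sums.

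Macrophages had a lower median TNF-Tg over WT ratio than inflammatory monocytes or neutrophils. In resident macrophages Fkbp5 stood at 149.8 CPM in WT and 12.1 in TNF-Tg, 12.4-fold lower, with 40.8 CPM in tdT1 on 3 UMIs and 22.2 in tdT2 on 4. Klf9 stood at 153 CPM in WT and 11.3 in TNF-Tg, 13.6-fold lower, with 326 in tdT1 on 24 UMIs and 16.6 in tdT2 on 3. TNF-Tg had the lowest value for both genes, but on so few UMIs tdT2 could not be told from TNF-Tg.

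Tsc22d3 followed in these cells with 448 CPM in WT, 95.8 in TNF-Tg, 516 in tdT1 and 310.2 in tdT2. Unlike in stromal cells, tdT2 was then nearer to WT than to TNF-Tg. Ddit4 was at 32.8 CPM in WT and 2.25 in TNF-Tg, on 571 and 8 UMIs, a log2 ratio of -3.86 (-5.08 to -2.87). Errfi1 was low in resident macrophages and alike in both, at 15.9 and 14.4 CPM, a log2 ratio of -0.15 (-0.61 to 0.29). Macrophages outside the resident class had 5 of 7 genes at least 2-fold lower, beside 13.3% of genes, with a median log2 ratio of -3.34, and there Klf9 stood at 65.7 CPM in WT and 1.20 in TNF-Tg, on 2 UMIs. The make-up of this class differed as well: Ccr2, H2-Aa, H2-Ab1 and Cd74 summed to 39321 CPM in WT and 7435 in TNF-Tg, and Ear2, Retnla, Fcrls and Cd226 to 13621 and 1007 CPM. In resident macrophages these sums were 13644 and 5426, and 4503 and 2668 CPM. Their part in the members' levels was not tested.

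RNA from burst cells is counted in all cells of a library, and its level was read from genes that a class should lack. The stromal gene Dcn in resident macrophages lay at 0.332% of its Pi16 stromal level in WT and 0.211% in TNF-Tg. Fkbp5 in WT resident macrophages was at 141% of its Pi16 stromal level, Klf9 at 29.6%, Zbtb16 at 7.01% and Errfi1 at 2.04%, all above that of Dcn. In the other direction, 7 macrophage genes (C1qa, C1qb, C1qc, Adgre1, Fcgr1, Ms4a7, Trem2) summed to 103.6 CPM in WT and 9.86 in TNF-Tg Pi16 stromal cells, 0.619% and 0.0916% of their level in resident macrophages. They were 1.35% and 0.119% in Cxcl14 stromal cells. The stromal levels of Fkbp5, Klf9 and Zbtb16 in WT were many times such a share of the macrophage level.

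Inflammatory monocytes and neutrophils differed less in median, though not for every gene. Inflammatory monocytes had 2 genes, Fkbp5 and Klf9, at least 2-fold lower of 6 with enough UMIs, beside 5.59% of genes, with a median log2 ratio of -0.55. Fkbp5 was at 44.95 CPM in WT and 7.99 in TNF-Tg there, a wider contrast than in either stromal class. In neutrophils 4 of 7 were at least 2-fold lower (Fkbp5, Tsc22d3, Klf9 and Errfi1), beside 7.39% of genes, with a median of -1.11. The Klf9 interval there (-3.47 to 0.18) held 0. Neutrophil Tsc22d3 was 527 CPM in WT, 243 in TNF-Tg, 559.6 in tdT1 and 597 in tdT2, so the low library was TNF-Tg alone, although tdT1 and tdT2 had only 10 and 30 neutrophils. The cells of the monocyte and macrophage classes also differed in number between WT and TNF-Tg, and a shift of state within a class cannot be told apart from a change of level.

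Over 12 classes, 75 of 84 pairs of a responsive gene and a class had 20 or more UMIs in WT and TNF-Tg together. In 50 of them the whole interval lay below 0, in 3 above 0, and in 22 it held 0. Over all genes, 19.3% of 97762 such pairs lay below 0 and 16.3% above. Fkbp5 was below 0 in all 11 classes with enough UMIs, Tsc22d3 in 9 of 12 and Klf9 in 9 of 11. All classes come from the same WT and TNF-Tg libraries, so they are not separate repeats. Some were small, with 11 WT patrolling monocytes, 12 TNF-Tg Ear2 phagocytes and 10 TNF-Tg mast cells. The 3 pairs above 0 were all of Sgk1. Its TNF-Tg over WT log2 ratio was 0.76 (0.31 to 1.23) in inflammatory monocytes, at 46.0 CPM in WT and 77.7 in TNF-Tg, and 0.58 (0.09 to 1.06) in Cd209a dendritic cells. In mast cells it was 2.59 (1.501 to 3.65) on 20 and 14 UMIs. For inflammatory monocytes the ratio was -0.14 when every cell was thinned to 3000 UMIs.

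**Figure D4:**
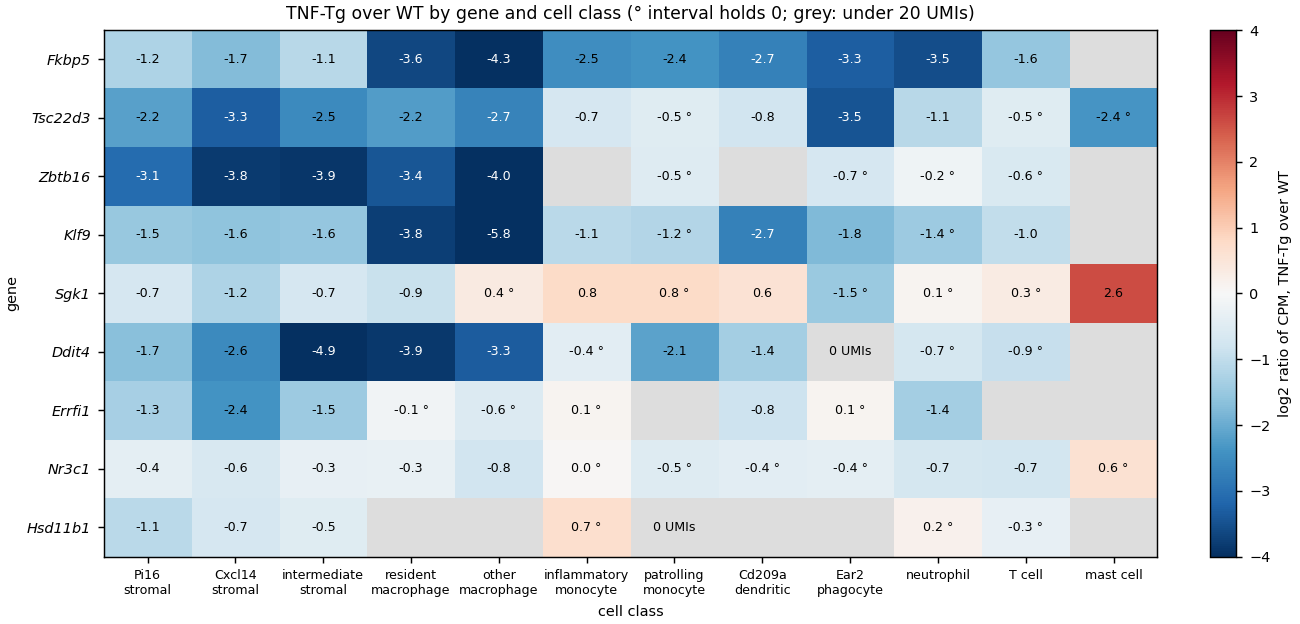
TNF-Tg over WT log2 ratio of CPM for each gene (rows) and cell class (columns), blue for lower in TNF-Tg, with the value printed; a degree sign marks an interval that holds 0, grey cells have under 20 UMIs, and 0 UMIs marks a library with none. Fkbp5 is blue in every class drawn, while Sgk1 turns from -0.68 and -1.25 in stromal cells to 0.76 in inflammatory monocytes.

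The receptor gene Nr3c1 did not share the arrangement with TNF-Tg and tdT2 below WT and tdT1. Its TNF-Tg over WT interval lay below 0 in 7 of 12 classes and held 0 in 5. Over all genes, 19.3% of such pairs lay below 0. In Pi16 stromal cells Nr3c1 stood at 162 CPM in WT, 122 in TNF-Tg, 210.4 in tdT1 and 205 in tdT2. Both tdT libraries were above WT, and the tdT2 over tdT1 log2 ratio was -0.04 (-0.31 to 0.22). TNF-Tg over WT was -0.40 (-0.51 to -0.30) in Pi16 stromal cells, -0.63 (-0.79 to -0.47) in Cxcl14 stromal cells and -0.28 (-0.43 to -0.15) in resident macrophages. Cxcl14 stromal cells held 146, 94.4, 253 and 206 CPM. The largest of these 3 TNF-Tg over WT point values was thus 1.55-fold lower, in Cxcl14 stromal cells, and its interval reached further. In all 3 classes tdT1 and tdT2 were above WT, so TNF-Tg lay further below them than below WT. In Pi16 stromal cells the tdT2 level of the receptor was that of tdT1, while the 6 responsive genes with UMIs in tdT2 were at least 2-fold lower than in tdT1. Over 12 classes WT levels ran from 50.8 CPM in Cd209a dendritic cells to 335 in mast cells.

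Hsd11b1 was hardly detected in macrophages. It had 20 or more UMIs in WT and TNF-Tg together in 7 of 12 classes, among them stromal cells, T cells and neutrophils. Pi16 stromal cells held 73.8 CPM in WT, 35.0 in TNF-Tg, 81.4 in tdT1 and 59.6 in tdT2, and Cxcl14 stromal cells 149.9, 94.2, 197 and 76.6. In every library Cxcl14 stromal cells were the higher of these classes. Resident macrophages had 7 UMIs in WT and 1 in TNF-Tg, or 0.402 and 0.282 CPM, and none in tdT1 or tdT2, where 3 UMIs would have been 40.8 and 16.6 CPM. The WT level in resident macrophages was 0.545% of that in Pi16 stromal cells, of the size seen for Dcn. T cells and neutrophils had UMIs of it above that share, at 89.5 and 31.2 CPM in WT. TNF-Tg over WT was -1.08 (-1.27 to -0.89) in Pi16 and -0.67 (-0.83 to -0.51) in Cxcl14 stromal cells. Over the 7 classes the Hsd11b1 interval lay below 0 in 3 and held 0 in 4, beside 19.3% of pairs below 0 over all genes. In both stromal classes TNF-Tg and tdT2 were below WT and tdT1 for Hsd11b1, as for 21.7% and 23.7% of all genes. The tdT2 level in Pi16 stromal cells rests on 37 UMIs.

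**Figure D5:**
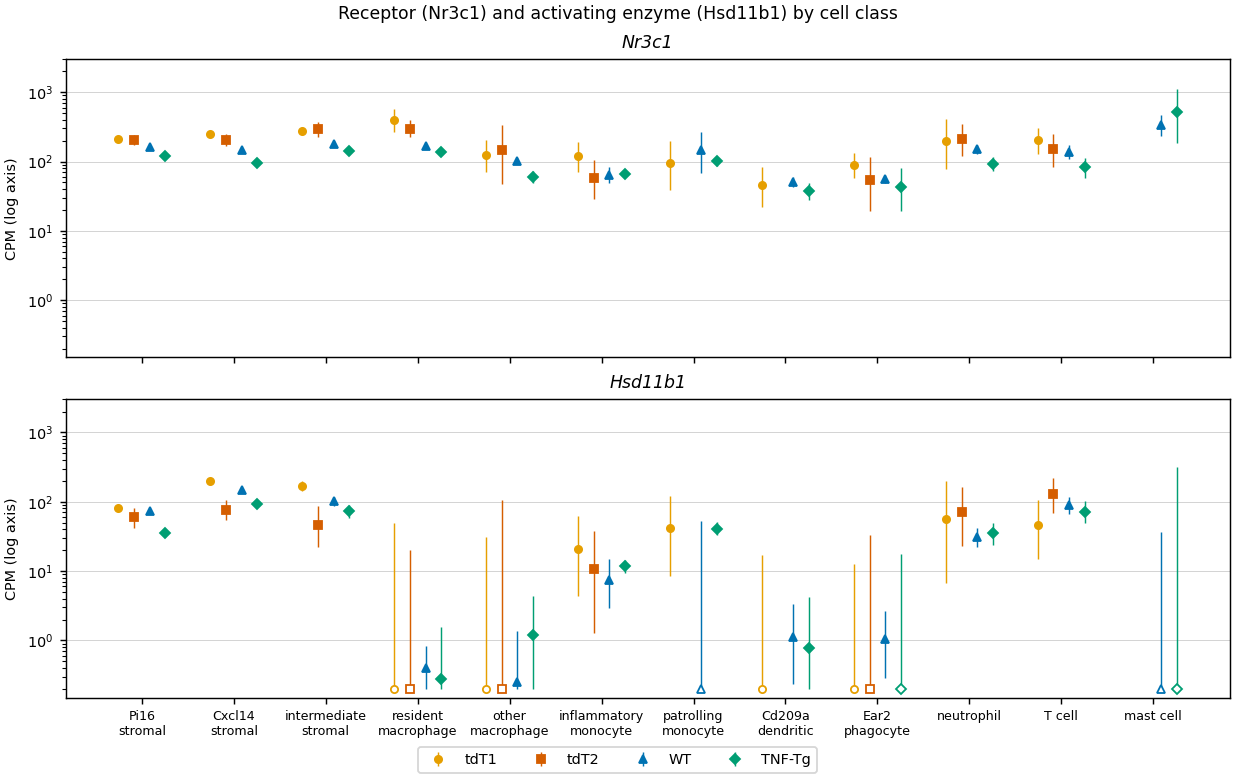
Level of Nr3c1 (top) and Hsd11b1 (bottom) in CPM on a log axis over 12 cell classes, with 1 point per library of 10 or more cells and exact 95% Poisson intervals; open symbols mark 0 UMIs. Nr3c1 lies within 1 order of magnitude in most classes, and Hsd11b1 drops from 149.9 CPM in WT Cxcl14 stromal cells to 0.402 in WT resident macrophages.

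Cell classes of the same library can be compared over the 4 libraries, and edgeR's quasi-likelihood test was run on summed counts with the library as a block and Benjamini-Hochberg adjustment over 11609 genes (threshold 0.01). Between Pi16 and Cxcl14 stromal cells, 4.54% of genes were called higher and 4.68% lower in Pi16 stromal cells. Of the 9 genes, 2 were called. Hsd11b1 was lower in Pi16 stromal cells by a log2 fold of -1.19 ± 0.17 (SE), in 4 of 4 libraries, with an edgeR adjusted p of 0.000177. Zbtb16 was higher by 0.71 ± 0.17, in 4 of 4 libraries, with an edgeR adjusted p of 0.0077. This Zbtb16 call held in only 2 of 10 alternatives, whose adjusted p ran from 0.0012 to 0.89. Without the library block edgeR called neither gene (adjusted p = 0.051 for Hsd11b1 and 0.89 for Zbtb16). Nr3c1 had a log2 fold of -0.02 ± 0.15.

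Between stromal cells (mean of both classes) and macrophages (resident and other), 28.8% of genes were called higher and 22.1% lower in stromal cells, so a call here says little about the members. Errfi1 (log2 fold 5.20 ± 0.32), Zbtb16 (3.70 ± 0.23), Klf9 (2.66 ± 0.40) and Sgk1 (1.68 ± 0.29) were higher in stromal cells in 4 of 4 libraries. The enzyme gene Hsd11b1 had the highest value, 7.85 ± 0.34. Tsc22d3 was higher in macrophages (-1.13 ± 0.20), in 4 of 4 libraries. Without the library block edgeR lost the calls for Tsc22d3, Zbtb16, Klf9 and Sgk1. Fkbp5 was not called (log2 fold 0.70 ± 0.34, edgeR adjusted p = 0.088), but without the WT library it was 1.81, with an edgeR adjusted p of 0.00045, and without the TNF-Tg library -0.03. Fkbp5 lay higher in stromal cells than in macrophages in TNF-Tg, and higher in macrophages in WT. It was about level in tdT2, at 16.2 and 21.7 CPM in the stromal classes and 18.7 in macrophages. In tdT1, at 48.3 and 50.9 CPM against 41.3 in macrophages, it was not clearly higher in either. The tdT1 and tdT2 macrophage sums held 26 and 58 cells.

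Other genes known to respond to glucocorticoid were less uniform. Of 26 listed genes, 8 were at least 2-fold lower and 3 higher in TNF-Tg Pi16 stromal cells, beside 6.38% and 4.27% of all genes, with a median log2 ratio of -0.52. Fam107a, an actin-bundling protein, was at 29.9 CPM in WT and 4.997 in TNF-Tg, and at 12.5 in tdT1 and 0 in tdT2. Cdkn1a, which encodes the cell cycle inhibitor p21, was at 195 and 35.5 CPM in WT and TNF-Tg, but at 262 in tdT1 and 153 in tdT2, so that the low library was TNF-Tg alone. The metallothionein Mt2 went the other way, from 528 CPM in WT to 3313 in TNF-Tg, with 1081 in tdT1 and 153 in tdT2. Among the 8 was also Cd163, a scavenger receptor of macrophages, at 10.1 CPM in WT and 0.921 in TNF-Tg stromal cells. These levels were 0.595% and 0.0640% of those in resident macrophages, close to the 0.619% and 0.0916% of the 7 macrophage genes. Mertk, a receptor that macrophages use to take up dying cells, was there too, on 46 and 5 UMIs.

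Of the same 26 in Cxcl14 stromal cells, 12 were at least 2-fold lower and 1, Mt2, higher, beside 12.4% and 3.74% of all genes, with a median of -0.66. Fam107a (39.2 CPM in WT, 2.68 in TNF-Tg) and Pdk4, a kinase that restrains pyruvate oxidation (8.35 and 0.823 CPM), had steep ratios, as had Cdkn1a. Cd163 was again among the 12, at 0.803% and 0.0858% of its resident macrophage level, below the 1.35% and 0.119% of the 7 macrophage genes. Resident macrophages had 3 of 21 at least 2-fold lower (Per1, Mertk and Hif3a), beside 6.82% of all genes. Per1, which belongs both to this list and to the clock, was at 65.6 CPM in WT and 20.3 in TNF-Tg. In inflammatory monocytes and neutrophils the NF-κB inhibitor gene Nfkbia was higher in TNF-Tg, with log2 ratios of 1.68 (1.48 to 1.89) and 2.34 (2.21 to 2.48).

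Genes of the machinery around the receptor differed less. In Pi16 stromal cells 14 genes for chaperones, cofactors and steroid handling had enough UMIs, with a median log2 ratio of -0.16. Of these, 1 was at least 2-fold lower, beside 6.38% of all genes. It was Abcb1a, an efflux pump, at 1.05 CPM in TNF-Tg and 2.16 in WT. Its interval held 0, and it is named, like Hif3a, after its values were seen. The coactivator Ncoa2 had a log2 ratio of -0.71 (-0.98 to -0.45) and the corepressor Ncor1 -0.49 (-0.60 to -0.39). The co-chaperone Stip1 was higher, at 0.48 (0.29 to 0.66). In Cxcl14 stromal cells the mineralocorticoid receptor Nr3c2, which also binds glucocorticoid, was at 5.62 CPM in WT and 1.03 in TNF-Tg on 35 and 5 UMIs. There Hsd11b2, whose enzyme inactivates the hormone, was at 0.803 and 4.11 CPM on 5 and 20 UMIs. In tdT1 and tdT2 Hsd11b2 was at 2.89 and 3.93 CPM, nearer to TNF-Tg than to WT, and Nr3c2 at 5.20 and 3.93 CPM, nearer to WT. These tdT values rest on few UMIs.

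Clock genes were read because hormone levels follow the time of day. Of 12 with enough UMIs in Pi16 stromal cells, 2 (Arntl and Npas2) were at least 2-fold lower in TNF-Tg, and Dbp was higher. Over all genes these shares were 6.38% and 4.27%. Dbp, which peaks in the opposite phase to Arntl, was at 6.89 CPM in WT, 29.2 in TNF-Tg, 15.4 in tdT1 and 1.61 in tdT2. The tdT2 value rests on 1 UMI. Arntl was at 29.2, 11.8, 39.2 and 33.8 CPM, lowest in TNF-Tg. In Cxcl14 stromal cells 4 of 12 were at least 2-fold lower and 1 higher, beside 12.4% and 3.74% of all genes. The Dbp log2 ratio in Cxcl14 stromal cells was 2.59 (2.08 to 3.13) and that of Arntl -1.91 (-2.53 to -1.34). Dbp was at 8.10 CPM in tdT1 and 15.7 in tdT2 there, the reverse of their order in Pi16 stromal cells. The libraries were made on separate days, the hour of tissue harvest is not given in the sources used here, and its part in the members' levels was not tested.

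Over the 35 sums of class and library with 20 or more cells, the genes outside the members whose log2(CPM + 1) was most like the mean of the 7 were Ahcyl1 (r = 0.86), Kat2b (0.86), Smarca2 (0.85), Esyt2 (0.84) and Atn1 (0.84), among 5775 genes with a mean of 20 or more CPM. Each of the 7, which is part of that mean, had an r of 0.87 for Klf9, 0.85 for Zbtb16, 0.81 for Sgk1, 0.78 for Fkbp5 and Errfi1, 0.50 for Tsc22d3 and 0.46 for Ddit4. Nr3c1 had 0.73 and Hsd11b1 0.54. The sums share libraries and cell types and are described only. Ahcyl1 in Pi16 stromal cells was at 118 CPM in WT, 82.2 in TNF-Tg, 106.8 in tdT1 and 70.9 in tdT2. WT and tdT1 were above TNF-Tg and tdT2 there, and for Kat2b, Smarca2 and Esyt2, but these genes were picked for such likeness. Atn1 did not have this arrangement, at 40.9, 40.6, 38.4 and 66.1 CPM in the same order of libraries.

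In the genome (GRCm38) the 9 genes lie apart on 8 chromosomes. Sgk1 (chr10:21882184-21999903, plus strand) and Ddit4 (chr10:59949669-59951834, minus strand) share one, Tsc22d3 (chrX:140539528-140600659) is X-linked, and Fkbp5 (chr17:28399094-28517527), Klf9 (chr19:23141226-23168134), Zbtb16 (chr9:48654297-48836222), Errfi1 (chr4:150853919-150868892) and Hsd11b1 (chr1:193221634-193264075) lie singly.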

How the data were processed

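The deposited matrices are raw UMI counts, one value for each cell and gene, from the authors' Cell Ranger runs; the headers name release 3.1.0 for tdT1 and 6.0.1 for the other 3 libraries, while the submitters' processing notes list Cell Ranger 3.1.0, Seurat 4.0.3 and mm10. Counts of the 30406 genes common to all libraries were used, and CPM were taken over all UMIs of the summed cells. Cells were gated by marker sums per 10000 UMIs (stromal: 32 or more and leukocyte under 4; Pi16 against Cxcl14 stromal: log2 ratio of 1 or more, or 0 or less), with no filter on cells; cells mixing markers were left out. Doublets were kept, and Scrublet (scanpy 1.11.5) marked 1 to 138 cells per library for an alternative. Clusters (Seurat 5.3.0, resolution 0.5) were another. Leaving out each library, other scalings and thinning were further alternatives. The 4 libraries gave 12 sums for edgeR 4.0.16 (TMM, filterByExpr, library as a block), tested on simulated data; DESeq2 1.42.0 was an alternative. Cell classes of one library share its mice and run, which is where the pairing comes from. With the library as a block, P-values measure how differences between classes varied from library to library. Both contrasts share 1 fit of the 12 sums, so the spread for the stromal classes takes in the macrophage sums too. The libraries differ in genotype and sort, so this spread is not that between replicates alone. Named genes are the 9 members and, per class, up to 4 of each list with the largest ratio whose interval leaves out 0, plus the 5 most alike. The members and lists were chosen with earlier results of these data known.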

Additional observations from a re-analysis of the deposited data

Results flagged for a closer look

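Sgk1 was flagged because its TNF-Tg over WT log2 ratio had the opposite sign in different cell classes, with counting intervals on either side of 0: 0.76 in inflammatory monocytes, 0.58 in Cd209a dendritic cells and 2.59 in mast cells, against values below 0 in Pi16, Cxcl14 and intermediate stromal cells and resident macrophages. The difference between classes was not tested, since each condition is 1 library, and the mast cell value rests on 10 TNF-Tg cells.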

How the results depend on the processing

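The 7 responsive genes stayed below 0 (TNF-Tg over WT) in Pi16 stromal, Cxcl14 stromal and resident macrophage classes in 167 of 168 recomputed values. The exception was Errfi1 in resident macrophages under the stricter gate (0.06). Their median log2 ratio in Pi16 stromal cells moved to -1.43 as a mean over cells and -1.31 after thinning. In Cxcl14 stromal cells it moved to -2.25 with clusters, -2.18 with median of ratios scaling, -1.60 as a mean over cells and -2.10 after thinning. The number of genes at least 2-fold lower moved to 3 in other macrophages under the stricter gate, and to 1 in inflammatory monocytes with clusters and 1 under the stricter gate. Thinning reversed Sgk1 in inflammatory monocytes (-0.14). The cause of these moves was not tested. For edgeR, the 1070 genes called between the stromal classes became 1715 with no filter, 361 without the library block and 596 to 913 with a library left out (596 without WT). The 5906 called between stromal cells and macrophages became 4136 to 5838 with a library left out, and 4239 without the block. DESeq2 called 1074 and 6066. Some values changed sign. With a library left out, the log2 fold between stromal classes ran from -0.28 (without TNF-Tg) to 0.15 (without tdT1) for Klf9, from -0.038 (without TNF-Tg) to 0.25 (without WT) for Errfi1 and from -0.090 (without TNF-Tg) to 0.11 (without tdT1) for Nr3c1. That of Fkbp5 against macrophages ran from -0.033 (without TNF-Tg) to 1.81 (without WT), where it was called. Nr3c1 was 0.011 with no filter, Ddit4 -0.052 with clusters, and Ddit4 against macrophages 0.18 with DESeq2, none of them called. Ddit4 in tdT2 is limited by depth.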
